A study of Mus musculus with 26 samples.

Results

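A mutant of ERR beta that is deficient in coactivator binding was compared with wild-type ERR beta in mouse embryonic stem cells (ESCs) that lack the endogenous receptor. The comparison took the 8 libraries, of 26 in the series, whose titles name the AF2M6 mutant (4 libraries) or wild-type ERR beta (4 libraries) in the knockout background. The KO_ERRb_AF2M6 group held clones 32-25 and 32-31, and the KO_ERRb_wt group held clones 8-3 and 8-4, with 2 libraries from each clone. All 4 clones were Esrrb knockout ESCs carrying a doxycycline-inducible construct, and all received doxycycline at 2 µg/ml for 3 days after 1600 cells had been seeded on poly-L-ornithine and laminin. The N2B27 medium held the MEK inhibitor PD and the GSK3 inhibitor CH. The growth protocol also lists LIF and the design text does not, so its presence is not settled. The residues changed in AF2M6 are not given in the sources used here.

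ERR beta, encoded by Esrrb, is an orphan nuclear receptor that binds DNA as a monomer at an extended half-site and acts without a known natural ligand. Like other nuclear receptors it holds a surface at its carboxy-terminal AF-2 helix that recruits coactivators, among them the p160 protein Ncoa3 in mouse ESCs. In ESCs it belongs to the naive pluripotency network, together with Nanog, Klf4, Tfcp2l1 and Sox2, and it is itself induced when GSK3 is inhibited.

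The 2 libraries of a clone were summed, so each group has n = 2 clones. The clones of ERR gamma in the knockout (KO_ERRg_wt), which also enter the fit, had only 1 library each (27875142 and 25103562 counts). Each p-value sets the difference against clone-to-clone spread, and it carries whatever else set the clones of a group apart. Library totals ran from 21276790 to 30021667 counts over the series, and the clone totals were 54105869 and 49547643 counts in KO_ERRb_AF2M6 and 48245061 and 46707156 counts in KO_ERRb_wt. Levels are CPM (counts scaled to library size) after TMM scaling. Fold changes are log2 of KO_ERRb_AF2M6 over KO_ERRb_wt ± standard error from edgeR's quasi-likelihood test on all 14 clones of 7 groups, and a gene is said to have risen or fallen where its Benjamini-Hochberg adjusted p was below 0.05. The ESC markers Pou5f1 (846 and 782 CPM in KO_ERRb_AF2M6, 839 and 784 CPM in KO_ERRb_wt) and Nanog (709 and 666 CPM in KO_ERRb_AF2M6, 742 and 678 CPM in KO_ERRb_wt) were abundant in all 4 clones, and so were Sox2, Zfp42 and Dppa5a.

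Esrrb (mm10 chromosome 12, 86361117 to 86521628, plus strand) had 455, 474, 431 and 446 CPM in the 4 KO_ERRb_AF2M6 libraries, against 429, 430, 409 and 411 CPM in the 4 KO_ERRb_wt libraries. Every mutant library lay slightly above every wild-type library, and the clone-level difference did not pass the test (0.10 ± 0.07, adjusted p = 0.278). Knockout cells with an empty construct (KO_mock) still had 277 and 276 CPM, so the gene count does not separate the construct from the endogenous locus. It does not show the amino acid changes of the mutant either, and so checks neither label. Esrra, which encodes the relative ERR alpha, had 25.4 and 24.6 CPM in KO_ERRb_AF2M6 and 27.9 and 26.9 CPM in KO_ERRb_wt (-0.13 ± 0.10, adjusted p = 0.32). Esrrg, which encodes ERR gamma, had 1 count in KO_ERRb_AF2M6 and 2 counts in KO_ERRb_wt, both under the floor of 3 counts. None of the 3 ERR family genes was called, and the list median was -0.13.

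Chromosomes 6 and 8 stood apart as wholes. Chromosome 6 genes had a median log2 difference of -0.96 over 736 tested genes, which is 51.4% of the level in KO_ERRb_wt. Chromosome 8 genes had a median of -0.57 over 795 tested genes, 67.5% of the level in KO_ERRb_wt. Medians of the other autosomes and chromosome X lay between -0.03 (chromosome 9) and 0.12 (chromosome X). In bins of 10 Mb with at least 15 tested genes, all 14 on chromosome 6 had a median below 0 (-1.22 to -0.86), as had all 12 on chromosome 8 (-0.65 to -0.31). The bins from 60 to 70 Mb on chromosome 6 and from 50 to 60 Mb on chromosome 8 held fewer genes and were not summarised.

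**Figure D1:**
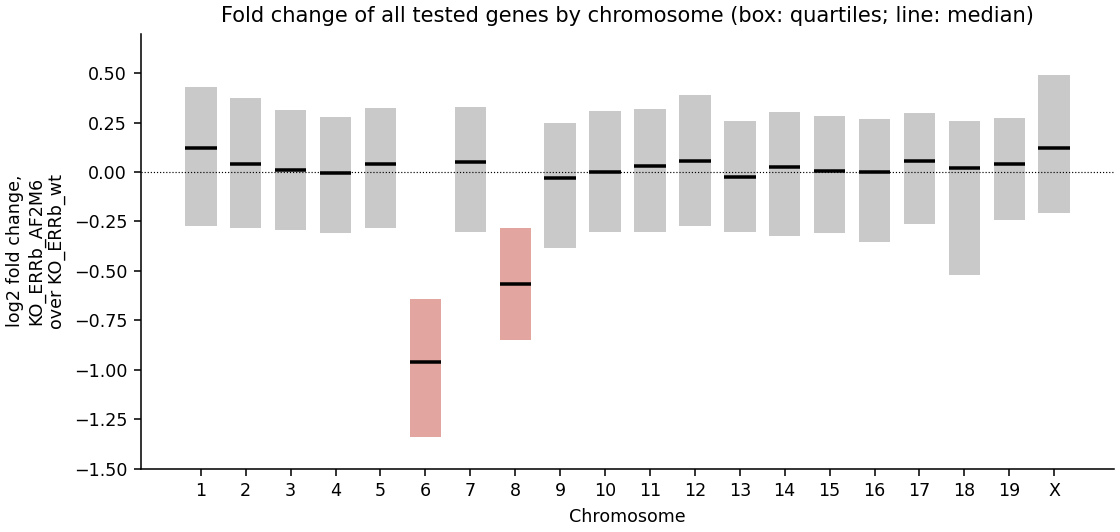
Log2 fold change of KO_ERRb_AF2M6 over KO_ERRb_wt (y axis) for all tested genes of each chromosome (x axis), with boxes from the lower to the upper quartile and a line at the median. Chromosomes 6 and 8, in red, have medians of -0.96 and -0.57, and the medians of the other autosomes and chromosome X lie between -0.03 and 0.12 (chromosome Y is not drawn).

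Both mutant clones carried both shifts. Relative to the mean of the wild-type clones, the chromosome 6 median was -0.92 in clone 32-25 and -0.93 in clone 32-31, and the chromosome 8 median was -0.56 and -0.54. Knockout cells with an empty construct and wild-type cells with an empty construct (WT_mock) lay between -0.03 and 0.00 on chromosome 6 and between -0.02 and -0.01 on chromosome 8, beside the KO_ERRb_wt clones. The DNA-binding deficient mutant KO_ERRb_DBDm3 (-0.40 and -0.91 on chromosome 6), the TFIIH-binding deficient mutant KO_ERRb_DBDm6 (-0.91 and -0.91) and the KO_ERRg_wt clones (-0.35 and -0.36) were shifted as well. In these clones the construct and the state of chromosomes 6 and 8 cannot be told apart.

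**Figure D2:**
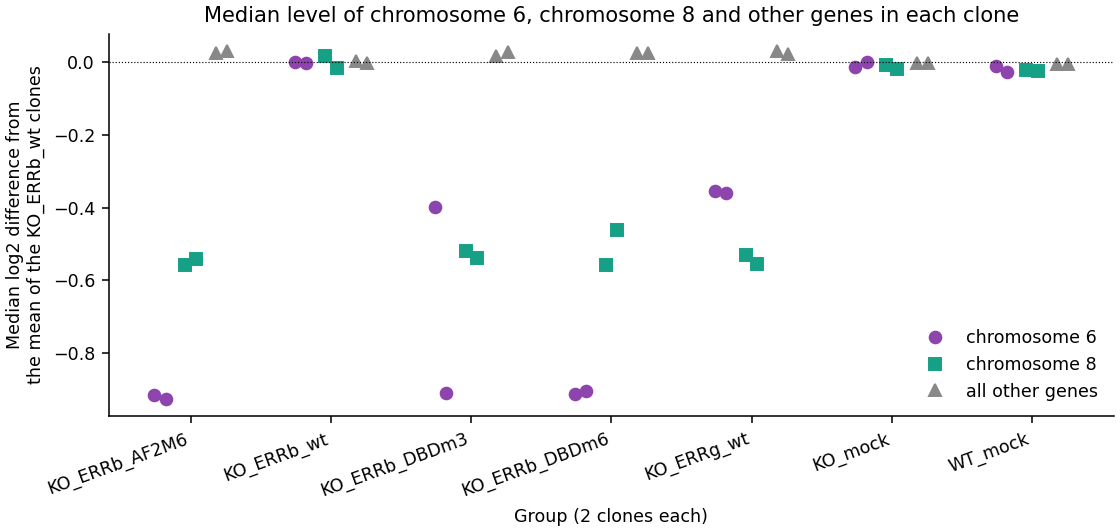
Median log2 difference from the mean of the KO_ERRb_wt clones (y axis) in each clone of each group (x axis), for genes of chromosome 6 (circles), chromosome 8 (squares) and all others (triangles). Both KO_ERRb_AF2M6 clones lie at -0.92 and -0.93 for chromosome 6, while the KO_ERRb_wt, KO_mock and WT_mock clones lie near 0.

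Smaller segments also differed. In the segment of chromosome X from 7 to 8.5 Mb, 22 of 37 tested genes were higher and 1 lower, with medians of 0.52 and 0.53 in clones 32-25 and 32-31. Genes of chromosome 1 beyond 150 Mb had a median of 0.42 in clone 32-31 and of -0.01 in clone 32-25. The 7 chromosome Y genes other than Erdr1 summed to 0.0413 CPM in clone 32-31, 180 CPM in clone 32-25, and 114 and 115 CPM in the wild-type clones, so the mutant clones also differ from each other. These segments were chosen after their values had been seen.

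Of 15238 genes tested, 6576 (43.2%) were called, 3100 of them higher (20.3%) and 3476 lower (22.8%) in KO_ERRb_AF2M6. Outside chromosomes 6 and 8, 3038 of 13707 genes were higher (22.2%) and 2405 lower (17.5%), and 863 in each direction differed at least 2-fold. On chromosome 6, 3.8% of tested genes were higher and 73.9% lower. On chromosome 8 these shares were 4.28% and 66.3%. The 2 clones of one group lay above the 2 of the other for 71.7% of all tested genes. With clone 32-31 left out, 1416 genes outside chromosomes 6 and 8 were called lower, and with clone 8-3 left out, 1468. With the genes of chromosomes 1, 6, 8, 12, 14, X and Y left aside, 4409 of 11230 genes (39.3%) were called.

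The 14 genes with the highest fold changes outside chromosomes 6 and 8 ran from 3.71 to 5.94 on the log2 scale and included a growth factor receptor, an ion channel and a myelin protein gene. Fgfr2 (chromosome 7, 130162451 to 130266808, minus strand), a receptor for fibroblast growth factors, had 20.4 and 18.2 CPM in the libraries of clone 32-25 and 44.4 and 53.8 CPM in those of clone 32-31, against 0.82 and 0.943 CPM in the libraries of clone 8-3 and 1.19 and 2.06 CPM in those of clone 8-4. The groups do not overlap, which the rule for named genes required of the clones, and clone 32-31 lies above clone 32-25 (4.76 ± 0.47, adjusted p = 3.96e-05). Trpm1 (chromosome 7, 64153835 to 64269759, plus strand), a cation channel of melanocytes and retinal bipolar cells, had 181 and 126 CPM in the mutant clones and 11.6 and 9.23 CPM in the wild-type clones (3.88 ± 0.34). Mobp, a myelin protein gene of oligodendrocytes, had 11.5 and 20.7 CPM in the mutant clones and 0.14 and 0.379 CPM in the wild-type clones, which gave the highest fold change of the 14 (5.94 ± 0.70).

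Lama3, a laminin chain of epithelial basement membranes, had 44.8 and 39.0 CPM in the mutant clones against 2.39 and 2.78 CPM in the wild-type clones (4.02 ± 0.30). Neb, the giant thin-filament protein nebulin of skeletal muscle, had 9.13 and 13.2 CPM against 0.381 and 0.653 CPM in the same order of groups. Gad1, the glutamate decarboxylase that makes GABA, had 11.9 and 19.2 CPM in the mutant clones and 0.803 and 1.58 CPM in the wild-type clones. Car12, a carbonic anhydrase, and Rhox9, a reproductive homeobox gene on chromosome X, rose in both mutant clones but unevenly: Rhox9 had 4.13 CPM in clone 32-25 and 34.1 CPM in clone 32-31, against 0.783 and 1.39 CPM in the wild-type clones, and its log2 fold change was 1.93 without clone 32-31 and 4.97 without clone 32-25. In a fit on the 4 clones of both groups alone Rhox9 was not called (adjusted p = 0.157).

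The remaining genes of the set were Zfp951, Ptprtos (a transcript of the strand opposite Ptprt), Xlr3a, Kctd12b, Serpina3m and Pdzrn4, with fold changes from 3.79 (Pdzrn4) to 5.71 (Zfp951). Xlr3a and Serpina3m belong to families with close copies, and reads that align to several places were not counted, so their levels are uncertain. Some of the 14 were also above KO_ERRb_wt in the knockout with an empty construct: in 10 of 14 both KO_mock clones lay above both KO_ERRb_wt clones, and in 14 of 14 both lay below both KO_ERRb_AF2M6 clones. Fgfr2, for example, had a mean of 4.88 CPM in KO_mock. Both KO_ERRg_wt clones lay above both KO_ERRb_wt clones for 13 of the 14. The choice of the 14 by high KO_ERRb_AF2M6 against KO_ERRb_wt favours these orders, and their shares over all tested genes are not given here.

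**Figure D3:**
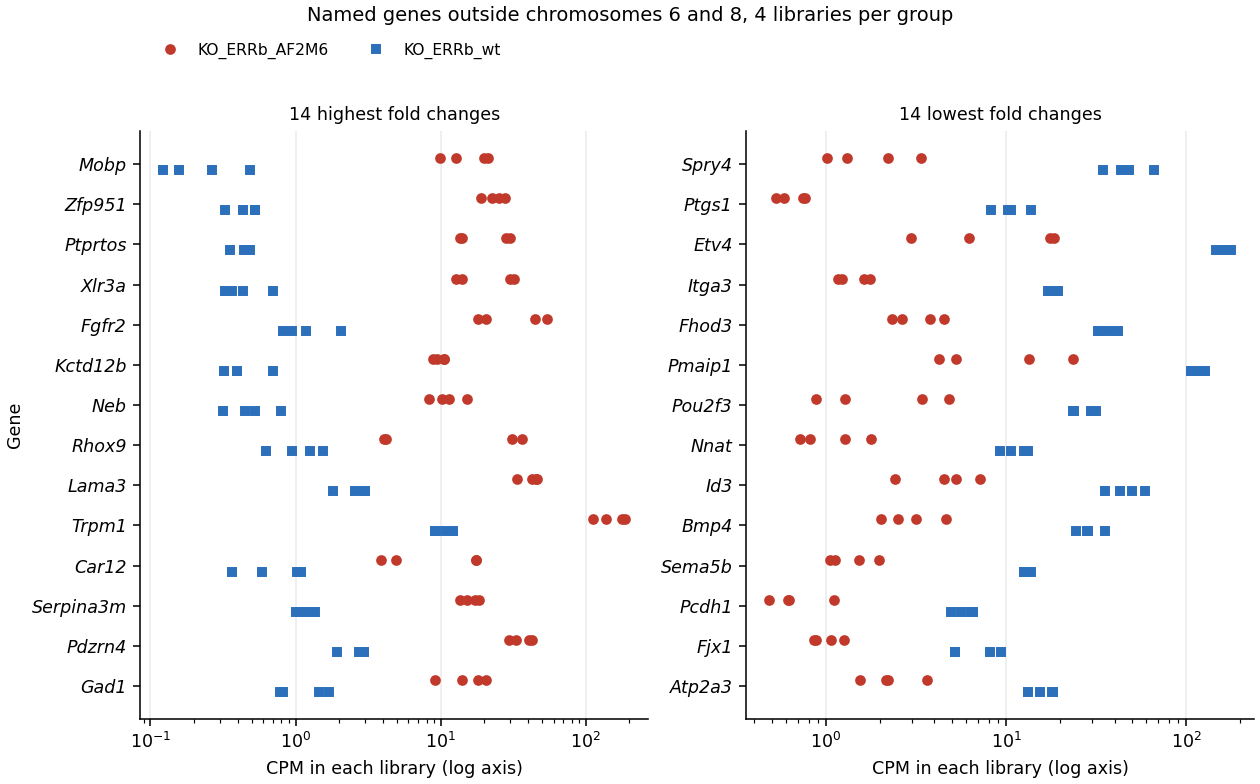
CPM on a log axis (x axis) in each library for the 14 genes with the highest and the 14 with the lowest fold change outside chromosomes 6 and 8 (y axis), with KO_ERRb_AF2M6 as circles above KO_ERRb_wt as squares. For each of the 28 genes all 4 mutant libraries lie on one side of all 4 wild-type libraries. Separated clones were a condition for naming a gene, and were found for 71.7% of all tested genes.

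The genes with the lowest fold changes outside chromosomes 6 and 8 included feedback regulators and effectors of growth factor and BMP signalling. The 14 lowest ran from -4.62 to -2.73. Spry4 (chromosome 18, 38586265 to 38601268, minus strand), an inhibitor of receptor tyrosine kinase signalling that is induced by it, had 2.21, 1.31, 1.01 and 3.35 CPM in the mutant libraries, against 43.5, 34.5, 47.9 and 66.7 CPM in the wild-type libraries (-4.62 ± 0.97, adjusted p = 0.00379). Etv4 (chromosome 11, 101769742 to 101785310, minus strand), an ETS factor of the same pathway, had 4.79 CPM in clone 32-25 and 18 CPM in clone 32-31, against 157 and 170 CPM in the wild-type clones (-3.85 ± 1.01, adjusted p = 0.0138). The Etv4 call did not hold without clone 32-25 (-3.18, adjusted p = 0.0573) or in the fit on the 4 clones alone (0.0706).

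Bmp4 (chromosome 14, 46383520 to 46390599, minus strand), a BMP ligand that ESCs secrete, had 4.00 and 2.25 CPM in the mutant clones and 26.2 and 32.2 CPM in the wild-type clones (-3.22 ± 0.24). Id3 (chromosome 4, 136143822 to 136145392, plus strand), a BMP-induced inhibitor of basic helix-loop-helix factors, had 6.00 and 3.76 CPM in the mutant clones and 39.1 and 54.6 CPM in the wild-type clones (-3.26 ± 0.46). Pmaip1, which encodes the pro-apoptotic BH3-only protein Noxa, had 18 and 4.73 CPM in the mutant clones and 108 and 125 CPM in the wild-type clones, and was not called in the fit on the 4 clones alone (adjusted p = 0.0878). For these 3 genes the mutant clones differed from each other by less than they differed from the wild-type clones.

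Itga3 (an integrin subunit that binds laminin) had 1.45 and 1.44 CPM in the mutant clones and 19.2 and 17.4 CPM in the wild-type clones (-3.66 ± 0.28). Fhod3, a formin that assembles actin filaments, had 4.19 and 2.48 CPM in the mutant clones against 40.0 and 33.3 CPM in the wild-type clones (-3.45 ± 0.22). Ptgs1, the cyclooxygenase that starts prostaglandin synthesis, was at 0.755 and 0.557 CPM in the mutant clones and at 12.2 and 9.19 CPM in the wild-type clones. The other members were Pou2f3 (a POU transcription factor), Nnat (the imprinted gene of neuronatin), Sema5b (a semaphorin), Pcdh1 (a protocadherin), Fjx1 and Atp2a3 (a calcium pump of the endoplasmic reticulum), which fell by 2.73 (Atp2a3) to 3.34 (Pou2f3) on the log2 scale.

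The knockout with an empty construct was not at the mutant level for these genes. Both KO_mock clones lay above both KO_ERRb_AF2M6 clones for 14 of the 14. For 7 of them (Itga3, Fhod3, Bmp4, Sema5b, Pcdh1, Fjx1 and Atp2a3) both KO_mock clones lay below both KO_ERRb_wt clones, and for 13 of the 14 both KO_ERRg_wt clones did. The 14 genes were chosen as lowest in KO_ERRb_AF2M6 against KO_ERRb_wt, which favours these orders. Their shares over all tested genes are not given here. Spry4 averaged 71.9 CPM in KO_mock, Id3 46.6 CPM and Bmp4 10.5 CPM, as the plot of levels in all groups shows.

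**Figure D4:**
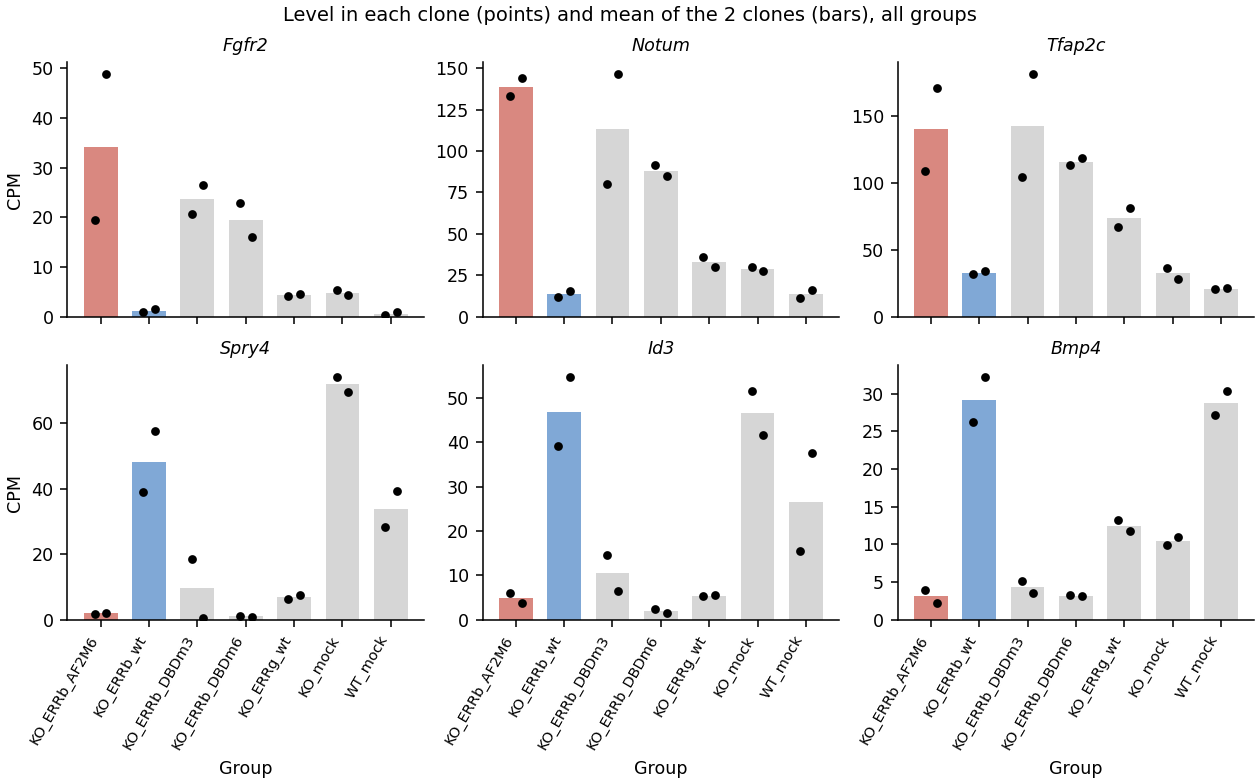
CPM (y axis) of 6 genes in each of the 7 groups (x axis), with a point for each clone and a bar at the mean of the 2 clones. Beside KO_ERRb_wt, Fgfr2, Notum and Tfap2c are high, and Spry4, Id3 and Bmp4 low, in KO_ERRb_AF2M6, KO_ERRb_DBDm3 and KO_ERRb_DBDm6. The KO_ERRb_DBDm3 clones 9-6 and 9-8 are uneven for Spry4 (18.6 and 0.706 CPM) and Id3 (14.5 and 6.53 CPM). WT_mock clone 5-2 has 15.4 CPM of Id3. KO_ERRg_wt is also low for Spry4 (6.27 and 7.58 CPM) and Id3 (5.38 and 5.52 CPM), and KO_mock averages 4.88 CPM for Fgfr2 and 71.9 CPM for Spry4.

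Only 1 gene passed the threshold between the coactivator-binding mutant and the mean of the other mutants. In the same edgeR quasi-likelihood fit, KO_ERRb_AF2M6 was set against the mean of KO_ERRb_DBDm3 and KO_ERRb_DBDm6, and 1 of 15238 genes (0.00656%) was called at an adjusted p below 0.05, while 1802 genes had an unadjusted p below 0.05. That gene was Serpina3m, a serine protease inhibitor of a family with close copies, at 15.6 and 16.7 CPM in KO_ERRb_AF2M6, against means of 2.57 CPM in KO_ERRb_DBDm3 and 9.74 CPM in KO_ERRb_DBDm6 (1.69 ± 0.19, adjusted p = 0.0272). For each of the 28 named genes outside chromosomes 6 and 8, both clones of KO_ERRb_DBDm3 and both of KO_ERRb_DBDm6 lay on the KO_ERRb_AF2M6 side of both KO_ERRb_wt clones. The 28 genes were chosen for their distance from the same KO_ERRb_wt clones, which favours this order. Its share over all tested genes is not given here. Fgfr2 averaged 34.1 CPM in KO_ERRb_AF2M6, 23.7 CPM in KO_ERRb_DBDm3 and 19.6 CPM in KO_ERRb_DBDm6, and Spry4 1.96, 9.68 and 1.05 CPM in the same groups. The Spry4 mean of KO_ERRb_DBDm3 joins unlike clones, at 18.6 CPM in 9-6 and 0.706 CPM in 9-8. A p above the threshold does not show that the mutants act alike, and all 6 clones of these groups had medians below 0 on chromosomes 6 and 8.

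On chromosomes 6 and 8, 62 genes rose and 1071 fell, set against the chromosome-wide medians of -0.96 and -0.57. The 5 highest were Ccdc136, Tex15, Itpr2, Slc4a5 and Adgrg5. Ccdc136 (chromosome 6, 29398926 to 29426995, plus strand) had 88.2 and 78.8 CPM in the mutant clones and 18.1 and 14.5 CPM in the wild-type clones (2.36 ± 0.13), and Tex15 (chromosome 8, 33570544 to 33585585, plus strand), a gene needed for meiosis in male mice, had 118 and 79.9 CPM against 19.4 and 25.8 CPM in the same order. Slc4a5, a sodium bicarbonate cotransporter, had 106 and 112 CPM in the mutant clones and 25.1 and 25.7 CPM in the wild-type clones. Itpr2 (2.10 ± 0.61, adjusted p = 0.0173), an IP3 receptor, lost its call without clone 32-25 (adjusted p = 0.0665), without 32-31 (0.0598) and without 8-4 (0.117).

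The 5 lowest were Zfp467, Zyx, Antxr1, Rerg and Ccnd2, all on chromosome 6. Zyx (chromosome 6, 42349828 to 42360213, plus strand), the focal adhesion protein zyxin, had 6.21 and 2.72 CPM in the mutant clones and 46.5 and 38.4 CPM in the wild-type clones (-3.24 ± 0.37). Ccnd2, the cell-cycle regulator cyclin D2, had 1.30 and 0.825 CPM against 7.63 and 9.25 CPM in the same order (-2.98 ± 0.26). With a scaling factor computed within each of chromosomes 6, 8 and 14, which removes the chromosome-wide shift, all 10 genes kept their direction and their call. Their fold changes were then -2.34 (Zfp467) to 3.30 (Ccdc136). The direction of such extreme genes could not change, because the shift removed was smaller than the fall of the 5 lowest and raises the 5 highest. With that scaling 134 genes of chromosome 6 were higher and 165 lower, and on chromosome 8 177 were higher and 132 lower.

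The naive pluripotency genes were not uniformly higher or lower with the mutant. Of 18 tested, 6 rose, 3 fell and 9 were not called, and their median was 0.01. Over all tested genes 20.3% were higher and 22.8% lower, with a median of -0.01, and the counts of every list below stand beside these shares. List counts outside chromosomes 6 and 8 stand beside 22.2% higher and 17.5% lower over all tested genes there. Prdm14, a repressor of differentiation in ESCs and primordial germ cells, had 36.3 and 46.8 CPM in the mutant clones and 15.8 and 13.7 CPM in the wild-type clones (1.49 ± 0.15). Dppa3, the maternal factor Stella, had 183 and 269 CPM in the mutant clones and 86.3 and 77.9 CPM in the wild-type clones (1.46 ± 0.29), although its chromosome 6 was lower as a whole. Tfcp2l1 rose (0.37 ± 0.07) and Lifr, the LIF receptor, fell (-0.49 ± 0.07). Zfp42 (Rex1, chromosome 8) fell (-0.42 ± 0.09), but was at 0.16 and not called with scaling within chromosomes. Nanog (chromosome 6), at -0.05 ± 0.06, was not called, but with that scaling it was called higher (0.90, adjusted p = 0.00021).

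The general pluripotency list had 5 genes higher and 5 lower of 15, with a median of 0.00. Sox2, the partner of Oct4, had 459, 515, 475 and 502 CPM in the mutant libraries, against 226, 228, 267 and 300 CPM in the wild-type libraries (0.93 ± 0.13), with no overlap. Sall4 rose (0.49 ± 0.11), while Utf1 (-1.33 ± 0.12) and the DNA demethylase gene Tet2 (-1.22 ± 0.22) fell. Of 14 formative and primed pluripotency genes 3 rose and 4 fell. Cdh2, N-cadherin, rose (2.02 ± 0.41), Dnmt3a fell (-0.83 ± 0.19, but adjusted p = 0.0748 in the fit on the 4 clones alone), and Otx2 had 20.9 and 7.95 CPM in the mutant clones against 4.84 and 3.58 CPM in the wild-type clones. The DNA methylation enzymes, 8 tested, had 1 gene higher and 3 lower. Dnmt3l, the cofactor of the de novo methyltransferases, fell to 68.7 and 60.9 CPM in the mutant clones, against 181 and 223 CPM in the wild-type clones (-1.64 ± 0.19).

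Among signalling targets, 5 of 15 FGF-MAPK genes fell and 1 rose, beside 22.8% lower and 20.3% higher over all tested genes, with a median of -0.26. Besides Spry4 and Etv4, the MAPK phosphatase gene Dusp6 fell (27.8 and 28.8 CPM in the mutant clones, 79.3 and 92.2 CPM in the wild-type clones, -1.60 ± 0.20), as did Spred1 (-1.14 ± 0.21) and Etv1 (-1.43 ± 0.36). Etv5, a close relative of Etv4, rose (564 and 546 CPM in the mutant clones, 344 and 333 CPM in the wild-type clones, 0.71 ± 0.09). Of 10 BMP and Id genes, 3 fell (Id3, Bmp4 and Id1) and 1 rose (Id4, 1.17 ± 0.16), with a median of -0.06. Id1 (-0.92 ± 0.29, adjusted p = 0.0263) was not called in any fit that left out 1 clone (adjusted p = 0.0706 to 0.0995).

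Of 13 Wnt pathway targets 4 rose and 2 fell, with a median of 0.14. Notum, a secreted Wnt deacylase induced by the pathway, had 151, 111, 147 and 141 CPM in the mutant libraries against 12.6, 11.4, 16.6 and 14.1 CPM in the wild-type libraries (3.34 ± 0.27), while Axin2, the standard target, was not called (0.14 ± 0.16). Tcf7 (0.42 ± 0.09) and Znrf3 (0.30 ± 0.08) rose. Nkd1, on chromosome 8, was 1 of the 2 that fell (-1.68 ± 0.32). It stayed lower and called with scaling within chromosomes (-1.10). Of 12 LIF-STAT3 targets 3 rose and 2 fell, with a median of 0.13, and of -0.11 outside chromosomes 6 and 8. Il6st, which encodes the signal-transducing receptor subunit gp130, had 159 and 175 CPM in the mutant clones and 85.6 and 94.0 CPM in the wild-type clones (0.90 ± 0.09), and Pim3 rose (0.51 ± 0.09).

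Of 17 nuclear receptor coactivators tested, 1 rose and 4 fell, beside 20.3% higher and 22.8% lower over all tested genes, with a median of -0.06. Pnrc1, a proline-rich coactivator, rose (76.9 and 66.7 CPM in the mutant clones, 37.5 and 42.7 CPM in the wild-type clones, 0.84 ± 0.10). Ncoa3 was not called (0.15 ± 0.08, adjusted p = 0.144). The acetyltransferase genes Kat2a (-0.26 ± 0.08) and Kat2b (-0.22 ± 0.06) and the p160 gene Ncoa1 (-0.49 ± 0.14) fell, but each call was lost in some fits without a clone, with an adjusted p of 0.121 for Kat2a without clone 32-25, 0.115 without 8-3 and 0.0521 without 8-4, 0.0846 for Kat2b without 32-31, 0.0538 without 8-4 and 0.0529 on the 4 clones alone, and 0.13 for Ncoa1 without 32-31 and 0.076 without 8-4. Among the corepressors Nrip1, which encodes RIP140, fell (-0.61 ± 0.09). Of 10 TFIIH subunits 5 rose and 2 fell, with a median of 0.14. Cdk7, its kinase, rose (0.40 ± 0.06), and Gtf2h5, its smallest subunit, fell (-0.63 ± 0.09).

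Of 16 primitive endoderm genes 6 fell and 2 rose (median -0.81, and -0.46 outside chromosomes 6 and 8). Sox7, an endoderm SOX factor, had 7 counts in KO_ERRb_AF2M6 and 238 counts in KO_ERRb_wt (0.0189 and 0.124 CPM in the mutant clones, 2.45 and 2.45 CPM in the wild-type clones, -5.09 ± 0.72), and Gata4 fell (-1.98 ± 0.40). Gata6 and Sox17, defining factors of this lineage, had at most 0.392 and 0.148 CPM in the 4 clones. The list summed to 647 to 651 CPM in the mutant clones and 594 to 674 CPM in the wild-type clones, most of it the matrix genes Lamc1, Sparc and Lamb1.

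Of 11 trophoblast genes tested 3 rose and 4 fell, with a median of 0.44. Tfap2c, an AP-2 factor of trophoblast and germ cells, had 109 and 171 CPM in the mutant clones and 31.8 and 33.9 CPM in the wild-type clones (2.09 ± 0.26), whereas its relative Tfap2a (-2.0 ± 0.25) and Eomes (-1.30 ± 0.20) fell, and Cdx2 was not called. Tfap2c made up most of the list's sum in the mutant clones, which was 143 to 202 CPM in the mutant clones and 77.2 to 85.9 CPM in the wild-type clones. Of 5 neuroectoderm genes 1 rose (Pax6, 2.07 ± 0.46) and 2 fell (Ncam1, -1.77 ± 0.18, and Sox1 of chromosome 8, -3.17 ± 0.29). Their sums were 56.4 to 79.0 CPM in the mutant clones and 64.6 to 68.3 CPM in the wild-type clones.

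Primitive streak and mesoderm genes, 11 tested, had 1 higher and 2 lower and summed to 26.8 to 64.4 CPM in the mutant clones and 73.2 to 85.8 CPM in the wild-type clones. The defining mesoderm factor T had 37.4 and 9.51 CPM in the mutant clones and 51.2 and 34.5 CPM in the wild-type clones, which did not pass the test (adjusted p = 0.374). Markers of 2-cell-like cells were near 0: Zscan4c had 29 counts in KO_ERRb_AF2M6 and 0 counts in KO_ERRb_wt, which allows up to 0.0316 CPM. Its mutant libraries were uneven, at 0.0388 to 0.612 CPM, and the call (adjusted p = 0.0213) was lost without clone 32-25 (0.0933), without 8-3 (0.0828) and without 8-4 (0.0723). The list, of which 2 genes were tested and 1 was called, summed to 0.537 to 1.08 CPM in the mutant clones and at most 0.0401 CPM in the wild-type clones.

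Among 6 fibroblast and feeder genes tested 2 rose and none fell. The sums were 1098 to 1129 CPM in the mutant clones and 825 to 872 CPM in the wild-type clones, nearly all from Fn1 (0.36 ± 0.07) and Vim, which ESCs also express, while S100a4 and Postn had 0 counts in all 8 libraries. Of 3 macrophage and blood cell genes tested 2 rose, Pecam1 (0.92 ± 0.17) and Cd68 (1.30 ± 0.23), and Hba-a1, Hbb-bs and Lyz2 had 0 counts in all 8 libraries. In bulk RNA, more cells of a type and more RNA per cell cannot be told apart. Of 14 keratin and epithelial adhesion genes 8 fell and 2 rose, with a median of -0.39. Ocln, the tight junction protein occludin, fell to 1.75 and 1.8 CPM in the mutant clones, against 10.2 and 11.2 CPM in the wild-type clones (-2.59 ± 0.41), and Krt7 rose (3.74 ± 0.49). Cdh1, E-cadherin, on chromosome 8, fell (-0.34 ± 0.06), but its direction flipped to 0.23 with scaling within chromosomes.

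**Figure D5:**
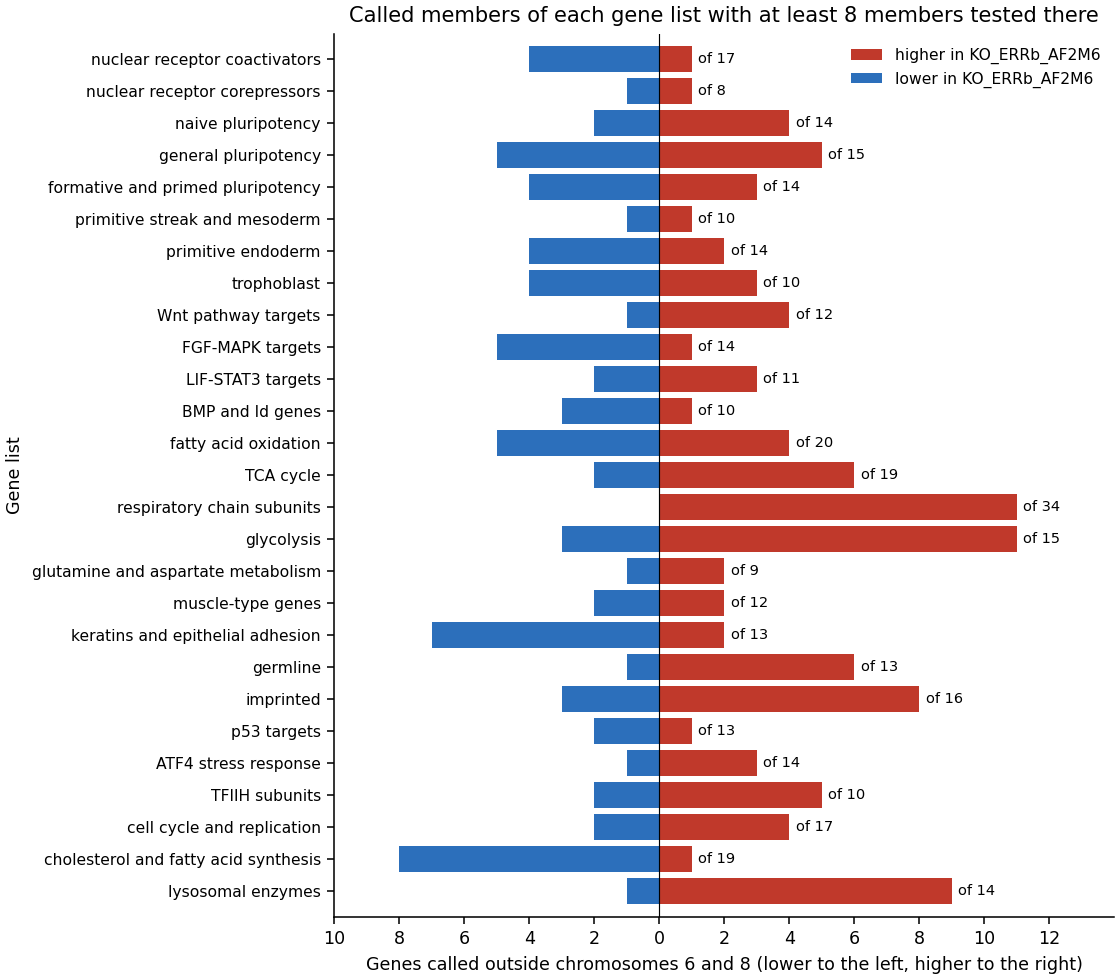
Number of called genes outside chromosomes 6 and 8 (x axis, lower to the left in blue and higher to the right in red) in each gene list with at least 8 members tested there (y axis), with the number tested beside each bar. Glycolysis has 11 of 15 genes higher and 3 lower, and cholesterol and fatty acid synthesis 1 higher and 8 lower of 19. Over all tested genes outside chromosomes 6 and 8, 22.2% were higher and 17.5% lower.

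Energy metabolism genes, which ERR proteins regulate in heart and muscle of mice, were called in both directions. Of 40 respiratory chain genes 11 rose and 5 fell, with a median of 0.13. All 5 that fell lie on chromosome 6 (Ndufa4, Ndufa5, Ndufa9, Ndufb2 and Cycs), so outside chromosomes 6 and 8 11 of 34 rose and none fell. The shares over all tested genes there were 22.2% higher and 17.5% lower. With scaling within chromosomes, Ndufa9 (0.07), Ndufb2 (0.01) and Cycs (0.00) flipped to values above 0 and Ndufa4 was at -0.10, all without a call, while Ndufa5 stayed lower and called (-0.34). Ndufb9 rose (0.35 ± 0.05) and Atp5b, the beta subunit of ATP synthase, rose (0.28 ± 0.05). Of 20 fatty acid oxidation genes 4 rose and 5 fell (median -0.05): Slc25a20, the carnitine carrier, rose (0.65 ± 0.10), and Etfdh, which passes electrons from acyl-CoA dehydrogenases to ubiquinone, fell (-0.66 ± 0.08). Of 21 TCA cycle genes 6 rose and 4 fell (median 0.08), and Idh3b rose (0.40 ± 0.07). Suclg1 and Suclg2, both on chromosome 6, fell by 0.93 and 1.07 on the log2 scale, but with scaling within chromosomes Suclg1 flipped to 0.02 and Suclg2 was at -0.12 and not called.

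Of 21 glycolysis genes tested 11 rose and 7 fell, with a median of 0.27, and outside chromosomes 6 and 8 11 of 15 rose and 3 fell. Aldoa, an aldolase of glycolysis, had 1924 and 1859 CPM in the mutant clones and 1178 and 999 CPM in the wild-type clones (0.80 ± 0.09), and Pkm rose (0.42 ± 0.07). Pfkm rose (1.06 ± 0.18) and Pfkp fell (-0.48 ± 0.08), so 2 forms of phosphofructokinase moved in opposite directions. Gapdh, on chromosome 6, fell (-0.69 ± 0.09), and its direction flipped to 0.26 with scaling within chromosomes. Of 11 glutamine and aspartate metabolism genes 2 rose and 2 fell, with a median of -0.09, and the amino acid transporter gene Slc38a2 rose (0.62 ± 0.12).

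Cholesterol and fatty acid synthesis genes fell in 9 of 20 cases and rose in 1, with a median of -0.22. Lss, lanosterol synthase, had 111 and 102 CPM in the mutant clones and 207 and 198 CPM in the wild-type clones (-0.92 ± 0.13). Of 16 lysosomal enzymes 9 rose and 2 fell, beside 20.3% higher and 22.8% lower over all tested genes, with a median of 0.28. Hexa, a subunit of beta-hexosaminidase, had 175 and 153 CPM in the mutant clones and 79.1 and 56.9 CPM in the wild-type clones (1.27 ± 0.15), and Ctsa rose (0.69 ± 0.07).

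Germline genes had the highest list median apart from the small lists of 2-cell-like and blood markers, 0.88 over 14 genes, with 6 higher and 1 lower. Dmrt1, a regulator of germ cell development, had 11.3 and 16 CPM in the mutant clones and 2.63 and 3.10 CPM in the wild-type clones (2.25 ± 0.25), Sycp3 of the synaptonemal complex rose (1.34 ± 0.19), and Mov10l1, a piRNA helicase, fell (-1.24 ± 0.27). Of 18 imprinted genes 8 rose and 4 fell, with a median of 0.45. Igf2r, the receptor that clears IGF2, had 164 and 158 CPM in the mutant clones and 76.9 and 74.3 CPM in the wild-type clones (1.09 ± 0.08). Meg3 (0.87 ± 0.21), Rian (0.81 ± 0.16) and Mirg (0.90 ± 0.18), neighbouring noncoding genes of chromosome 12, rose, and Nnat (-3.28 ± 0.54) and Plagl1 (-1.56 ± 0.30) fell.

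Of 14 muscle-type genes 3 rose and 2 fell, with a median of 0.02, and of -0.13 outside chromosomes 6 and 8. Ckb, brain-type creatine kinase, rose (1.33 ± 0.22) and Casq2, the calcium store protein of heart muscle, fell to 0.34 and 0.413 CPM in the mutant clones, against 6.48 and 8.77 CPM in the wild-type clones. The p53 targets had 1 higher and 2 lower of 14, the ATF4 stress response 3 higher and 2 lower of 16, and the cell cycle and replication list 4 higher and 5 lower of 20, with medians of 0.22, -0.00 and 0.02. The ATF4 median was 0.13 outside chromosomes 6 and 8. Of the replication genes, Mcm2 (chromosome 6) and Mcm5 (chromosome 8) fell by 0.84 and 0.44 on the log2 scale, and both directions flipped, to 0.10 and 0.14, with scaling within chromosomes.

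The response element of ERR proteins was searched in promoter windows of RefSeq (GRCm38.p6), from 250 bases before to 50 after each gene's start, as the letters TNAAGGTCA and as the core AAGGTCA that lies within it, on both strands. Of 11119 tested genes with a window, 0.953% held the full element and 4.16% the core. Among genes that rose outside chromosomes 6 and 8 the shares were 1.30% (29 of 2237) and 4.65%, and among those that fell 0.722% (13 of 1800) and 3.89%. Among those at least 2-fold higher they were 1.20% and 6.00%, and among those at least 2-fold lower 0.955% and 4.94%. Of the 38 genes named above for their fold change, 22 had a window and none of those held either motif. Windows are shown for the 2 genes with the highest and the 2 with the lowest fold change among 34 called genes outside chromosomes 6, 8 and 18 that hold the full element and pass the level rule for named genes, because they are where the letters and the largest differences meet.

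Rpl10l is a testis-type copy of the ribosomal protein gene Rpl10, and Myh7b is a myosin heavy chain gene. Nlrx1 encodes a mitochondrial NLR protein, and Ddc is the decarboxylase that makes dopamine and serotonin. Rpl10l rose (2.46 ± 0.19), with a level made uncertain by its near copies, and Myh7b rose (1.46 ± 0.10). Nlrx1 (-2.03 ± 0.30) and Ddc (-1.75 ± 0.27) fell. Capitals mark the full element, which reads TNAAGGTCA on the gene's strand in Rpl10l and Nlrx1 and on the opposite strand in Myh7b and Ddc. The windows are chr12:66284352-66284651 (minus strand), chr2:155610993-155611292 (plus strand), chr9:44268550-44268849 (minus strand) and chr11:11898095-11898394 (minus strand).
Rpl10l: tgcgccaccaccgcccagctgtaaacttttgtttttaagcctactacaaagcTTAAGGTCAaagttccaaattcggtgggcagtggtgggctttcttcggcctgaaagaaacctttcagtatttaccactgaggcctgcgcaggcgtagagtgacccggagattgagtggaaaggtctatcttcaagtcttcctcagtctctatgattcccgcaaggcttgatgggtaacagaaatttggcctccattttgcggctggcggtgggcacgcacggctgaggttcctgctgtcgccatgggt
Myh7b: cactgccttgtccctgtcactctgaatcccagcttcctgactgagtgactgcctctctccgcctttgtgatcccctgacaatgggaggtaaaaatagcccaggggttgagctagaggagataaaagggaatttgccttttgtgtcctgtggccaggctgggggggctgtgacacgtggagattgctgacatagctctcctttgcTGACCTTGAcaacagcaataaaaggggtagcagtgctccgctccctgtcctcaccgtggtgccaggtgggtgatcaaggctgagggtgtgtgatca
Nlrx1: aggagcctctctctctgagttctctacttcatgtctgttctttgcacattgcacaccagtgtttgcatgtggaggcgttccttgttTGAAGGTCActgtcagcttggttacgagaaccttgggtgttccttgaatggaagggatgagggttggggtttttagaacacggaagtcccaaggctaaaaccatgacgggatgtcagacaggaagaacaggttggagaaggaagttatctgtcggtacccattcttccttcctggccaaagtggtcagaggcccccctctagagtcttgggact
Ddc: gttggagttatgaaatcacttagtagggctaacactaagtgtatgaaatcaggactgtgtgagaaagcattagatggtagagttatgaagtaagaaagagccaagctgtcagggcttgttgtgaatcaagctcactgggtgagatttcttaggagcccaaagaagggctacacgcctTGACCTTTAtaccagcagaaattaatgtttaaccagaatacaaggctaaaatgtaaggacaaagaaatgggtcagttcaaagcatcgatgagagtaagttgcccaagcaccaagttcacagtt

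The element lay 190 bases before the start site in Rpl10l, 38 bases before it in Myh7b, 156 bases before it in Nlrx1 and 65 bases before it in Ddc, measured from its nearer end. A match is a description of letters in the window and says nothing of binding.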

How the data were processed

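Single-end reads of 100 bp from ribosomal RNA-depleted, strand-specific libraries of total RNA were counted by the authors, per the labels' protocols. The submitters' processing notes name STAR 2.7.8a with mm10 and featureCounts 2.0.10, while the version per the file headers is 2.0.1. The deposited values are integer read counts per gene symbol. Per the file headers, exons were counted on the reverse strand, a read over several genes counted for each, and reads aligned to several places were not counted. All 26 columns of counts in the table were used, and no column of counts was left out.

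The counts were added up per clone, filtered with filterByExpr, scaled by TMM (factors 0.972 to 1.05) and fitted with edgeR 4.0.16 in R 4.3.3, as a robust quasi-likelihood model with 1 mean for each of 7 groups over 14 clones (7 residual degrees of freedom, biological coefficient of variation 0.116, prior count 0.125). It tested 15238 genes, and p-values were adjusted over all of them by Benjamini-Hochberg. The test was tried on simulated counts with known changes, the same spread for every gene and no chromosome-wide shift. Its outcome is not reported here, and these settings differ from the data, so it is no check of the calls. A gene with 0 counts was given a limit of 3 counts over its group's total, which covers counting error only.

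Named genes were Esrrb, Esrra and Esrrg and, among called genes whose average log2 CPM reached 1 and whose clones were separated, the 14 highest and 14 lowest outside chromosomes 6 and 8 and the 5 highest and 5 lowest on them, passing over unnamed predicted genes and small or ribosomal RNAs, plus up to 4 members with the smallest p for each of 33 gene lists. Further list members are named where a count needs them or as the standard member of a list, and these were chosen after their values were seen. Some list members are not reported here. The groups compared, the named-gene rule and the lists were chosen with earlier results of these data known. Alternatives covered scaling (RLE, upper quartile, TMM without chromosomes 6, 8 and 14, scaling within chromosomes), the filter, DESeq2 1.42.0, limma voom 3.58.1, the samples in the fit, single libraries, each clone left out and the threshold.

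The library numbers (1 and 2) were not used to pair clones across groups in the main fit. Over the 4 clones, the 6 correlations of the library 1 minus library 2 differences ran from -0.234 to 0.252, with a median of -0.0249. Over all 12 clones with 2 libraries, the 66 correlations ran from -0.461 to 0.814, with a median of 0.0154. Some clones of the series thus did deviate together by library number. The libraries of clone 32-25 differed by 10.8 in chi-square per degree of freedom, against 2.28 to 5.01 in the other 3 clones, so no pair was counted as a single library.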

Additional observations from a re-analysis of the deposited data

Results flagged for a closer look

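One library value lay apart from the others of its group. Esrra in KO_ERRb_AF2M6 was 26.45 CPM in library 2 of clone 32-25, and 24.5 to 24.6 CPM in the other 3 libraries of the group. The gap exceeded Dixon's 95% critical value for 4 values. It was the only one among 80 groups of 4 libraries examined for 40 genes, and chance flags about 1 in 20 such groups.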

How the results depend on the processing

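Over all tested genes, an adjusted p below 0.01 left 1930 genes higher and 2229 lower, and outside chromosomes 6 and 8 it left 1894 higher and 1332 lower. Leaving out each clone in turn gave 2136 to 2781 genes higher and 2354 to 3020 lower, and outside chromosomes 6 and 8 2095 to 2716 higher and 1416 to 2064 lower. The chromosome 6 median was -0.90 with DESeq2, -1.0 with TMM computed outside chromosomes 6, 8 and 14, -0.97 with libraries as separate samples, -0.97 in library 1 and -0.97 in library 2, -0.95 with limma voom, -0.90 with no filter, -0.94 with RLE and -0.98 with upper-quartile factors, and -0.98 to -0.95 with a clone left out. The chromosome 8 median was -0.50 with DESeq2, -0.61 with TMM computed outside chromosomes 6, 8 and 14, -0.52 with no filter, and -0.58 to -0.53 with a clone left out. Scaling within chromosomes 6, 8 and 14, which by construction centres them, gave medians of -0.0128 and 0.0075. Among the genes named in the text it reversed Nanog (0.90), Suclg1 (0.0222), Ndufb2 (0.0066), Ndufa9 (0.07), Cycs (0.00487), Zfp42 (0.16), Gapdh (0.26), Cdh1 (0.23), Mcm5 (0.14) and Mcm2 (0.10). The fit on the 4 clones of both groups alone lost the calls of Rhox9, Etv4, Pmaip1, Kat2b, Dnmt3a and Ccnh (adjusted p = 0.0516 to 0.157). The library number as a replicate block in limma voom gave 3325 genes higher and 3564 lower, against 3336 and 3604 without the block, with a chromosome 6 median of -0.94. Of the genes named by rule, 17 lost a call in at least 1 fit without a clone and none reversed there. Where no cause follows from how an alternative is built, the cause was not tested. With n = 2 clones per group, a clone left out leaves a lone clone that is assumed to vary like the other groups. The single-library fits were added after the data had been seen.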

Other observations

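Genes whose exons overlap were counted more than once, and 2 loci show what this does to a count of genes. All 22 gamma protocadherin genes tested on chromosome 18, which encode neuronal adhesion proteins and share their last exons, were lower in KO_ERRb_AF2M6, with log2 fold changes of -0.54 to -0.40. Their levels were 68.7 to 88.2 CPM in the mutant clones and 95.4 to 119 CPM in the wild-type clones, and 41.7% to 47.2% of each gene's exonic length was shared with other genes of the cluster, so the 22 calls rest largely on the same reads.

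At Sfmbt2, the host of a cluster of rodent microRNAs, 32 of 35 small RNA entries inside the gene were called higher and none lower, with a median of 2.11. Of all 440 small RNA entries tested, these included, 72 were called higher and 19 lower. Sfmbt2 itself had 129 and 235 CPM in the mutant clones and 50.6 and 60.3 CPM in the wild-type clones, a log2 fold change of 1.72 ± 0.30. Total RNA libraries of this kind do not separate the host transcript from mature microRNAs. Among all called genes, 88 of the 3100 higher and 48 of the 3476 lower shared over 25% of their exonic length with another gene. The share of such genes among all tested genes is not given here. Both loci were singled out after their values had been seen.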
